A study of Mus musculus with 9 samples.

Results

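Aminoacyl-tRNA synthetases join each amino acid to its transfer RNA and so set up every codon that a ribosome reads. A cytosolic set serves the ribosomes of the cytoplasm, and a second set, mostly encoded by nuclear genes whose names end in 2, serves the mitochondrial ribosome. Gars and Kars each encode both the cytosolic and the mitochondrial enzyme for their amino acid, and they are counted here with the cytosolic genes. When an amino acid runs short, uncharged tRNA activates the kinase GCN2, which phosphorylates eIF2α and raises translation of the transcription factor ATF4, and many cytosolic synthetase genes are known ATF4 targets together with genes of amino acid synthesis and uptake. A list of 36 synthetase genes, 20 cytosolic and 16 mitochondrial, was drawn up with earlier results of these data known. The genes described here were chosen by name, as those rows of the deposited expression table whose symbol belongs to that list. The table of 11931 genes held 31 of the 36, 19 cytosolic and 12 mitochondrial, and all 31 passed the filter on low values. Sars, Ears2, Mars2, Nars2 and Wars2 were not analysed here.

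Expression was measured by sequencing the 3′ ends of mRNAs in 9 libraries of mouse normal mammary fibroblasts, with 3 libraries in each of 3 groups. Fibroblasts in the first group were co-cultured with 4T1-GFP cells for 3 days, those in the second were co-cultured for 5 days, and those in the third were kept in monoculture for 5 days. All came from female BALB/c mice aged 12 weeks, out of the mammary fat pad, and had recovered on collagen for 1 week. 4T1 is a BALB/c mammary carcinoma line, here marked with GFP, and every group was sorted for cells without GFP and with podoplanin (PDPN), a surface glycoprotein of stromal cells. No monoculture of 3 days was used, so co-culture and days in culture cannot be told apart when the 3-day co-cultures are set against the monocultures. Nothing in the labels says that replicates came from separate cultures or animals, so p-values measure only the spread between these samples. Both comparisons with monoculture use the same 3 monoculture libraries.

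Depth lay between 1048471 and 3567326 reads per library and was greatest in the monocultures. The 12 fibroblast markers were present in every library, with summed normalised counts of 44400 to 55640 in 3-day co-cultures, 39560 to 53750 in 5-day co-cultures and 46230 to 63830 in monocultures, sums carried by the highest of them, Col1a1 and Col1a2. Of these 12 markers 5 fell at 3 days against monoculture (Pdgfra, Pdgfrb, S100a4, Thy1 and Col3a1, by 0.75 to 2.12 on the log2 scale), beside 9.37% of all genes. At 5 days the same 5 and Dcn fell and Vim rose, beside 11.4% of all genes that fell and 12.6% that rose. The median log2 fold change of the list at 5 days was -1.36. Pdpn, the sort marker, did not pass (0.42, adjusted p = 0.19, and 0.34, adjusted p = 0.28). Markers of epithelial or carcinoma cells separated the co-cultures from the monocultures. The sum of 14 such genes, led by Krt18 and Wfdc2, was 1115 to 1276 at 3 days of co-culture, 1100 to 1532 at 5 days and 54.9 to 82.8 in monoculture. Cldn3 and Elf3 were at 0 in all 3 monocultures, and Epcam and Cdh1 were at 0 in 2 of them. Elf3 was too low to be tested and was also at 0 in 1 of the 3-day co-cultures. Of the 13 tested, 12 rose at 3 days and 12 at 5 days, beside 10.6% and 12.6% of all genes. Spint2 overlapped between the groups and did not pass (0.89, adjusted p = 0.2, and 0.57, adjusted p = 0.42). Basal markers (Krt14 and Sfn highest) summed to 44.6 to 66.4 at 3 days, 39.6 to 49.9 at 5 days and 2.5 to 11 in monoculture. Of 6 basal markers 3 were in the table, and of these Oxtr went the other way. It was at 0 in every co-culture library and at 1.9, 1.4 and 3.9 in the monocultures, too low to be tested. Sums of the immune markers, with Cd68 and Lyz2 highest, overlapped between the groups. Pericyte and smooth muscle markers, 5 of 6 in the table, summed to 172.0 to 280.6 at 3 days, 219.8 to 245.9 at 5 days and 101.0 to 165.9 in monoculture. Among them Cspg4 rose at both times (2.91, adjusted p = 6e-06, and 3.38, adjusted p = 7.7e-07) and Des at 3 days (1.12, adjusted p = 0.04), while Acta2 overlapped between the groups. The list did not move together: 2 of its 5 genes had a negative log2 fold change at 3 days (median 0.76) and 3 at 5 days (median -0.16). Of adipocyte markers 1 of 6 was in the table, Fabp4, at 5.0 to 22.3 in 3-day co-cultures, 9.0 to 16.2 in 5-day co-cultures and 93.5 to 145.2 in monocultures. The part of these other cell types in the synthetase results was not tested, and in such bulk samples fewer cells of a type and less RNA per cell cannot be told apart.

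The first comparison asked how synthetase mRNAs of fibroblasts kept 3 days with carcinoma cells differ from those of fibroblasts grown alone. Of the 19 cytosolic genes 8 rose (Gars, Wars, Cars, Lars, Yars, Mars, Iars and Farsb) and 0 fell at an adjusted p under 0.05 (limma, Benjamini-Hochberg over 10639 genes), against 10.6% of all genes tested that rose and 20.0% that changed in either direction. No cytosolic gene was lower at an unadjusted p under 0.05, by edgeR or by DESeq2. The median log2 fold change of the 19 genes was 0.46, with a range of -0.31 to 1.48, beside 0.001 for all genes tested. Groups did not overlap for 10 of them, all higher in co-culture, beside 19.2% of all genes. Of the 12 mitochondrial synthetases 0 rose and 1 fell (Sars2), and their median was 0.14.

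Gars, the glycyl-tRNA synthetase (chr6:55038007-55079500 on mm10, by the GENCODE annotation used for all gene positions here), had the largest log2 fold change of the 31 genes in both comparisons with monoculture. Its normalised counts were 1139.2, 1425 and 1719.6 in the 3-day co-cultures, 1320.8, 1671.8 and 977.5 in the 5-day co-cultures, and 555.2, 451.4 and 509.7 in the monocultures. The 6 co-culture libraries all lay above the 3 monocultures, and the 2 co-culture groups overlapped. At 3 days the log2 fold change was 1.48 (SE 0.21, adjusted p = 0.00011), a 2.79-fold difference on the log2(value + 1) scale used throughout. Variants of the human gene cause an inherited peripheral neuropathy.

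Wars, the tryptophanyl-tRNA synthetase (chr12:108860030-108894174), is also an interferon-gamma-induced gene in human cells. It had 528.1, 439.3 and 293.6 normalised counts at 3 days of co-culture, 342.3, 206.8 and 309.6 at 5 days, and 221.6, 126.4 and 159.4 in monoculture. All 3-day values exceeded all monoculture values, whereas replicate 2 of the 5-day co-cultures fell inside the monoculture range. Its log2 fold change at 3 days was 1.31 (SE 0.26, adjusted p = 0.0018). Cars, the cysteinyl-tRNA synthetase (chr7:143557230-143600090), had 456.7, 601.4 and 395.1 normalised counts at 3 days, 236.3, 290.6 and 237.2 at 5 days, and 255.6, 156.2 and 199.9 in monoculture. The 3-day libraries stood above all the others, and the 5-day libraries overlapped the monocultures (3-day log2 fold change 1.25, SE 0.21, adjusted p = 0.00052).

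Leucine is charged by Lars, whose human protein is also known as a leucine sensor upstream of mTORC1 (chr18:42202298-42262194). It had 373.6, 452.5 and 295 normalised counts in the 3-day co-cultures, 268.6, 213.3 and 236 in the 5-day co-cultures, and 206.1, 135.6 and 186.4 in the monocultures. The 3 groups formed 3 steps with no overlap, and the 3-day log2 fold change was 1.08 (SE 0.21, adjusted p = 0.0015).

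Yars, the tyrosyl-tRNA synthetase (chr4:129189760-129219607), showed the same order. Its values were 204.3, 194.2 and 286.6 at 3 days, 144.7, 178.8 and 158.6 at 5 days, and 115.7, 98.1 and 117 in monoculture. Its groups were also fully separate, with a 3-day log2 fold change of 1.03 (SE 0.19, adjusted p = 0.0015).

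Mars, which charges methionine for elongation and initiation alike (chr10:127296221-127311786), was the least variable cytosolic member within the 3-day co-cultures. It had 450, 418.4 and 452.2 normalised counts there, 336, 380 and 305.9 at 5 days, and 248.2, 185.1 and 244.9 in monoculture. Again no value of one group reached into the next, and the log2 fold change at 3 days was 0.97 (SE 0.17, adjusted p = 0.00091). Exons of Mars overlap those of Ddit3 on the opposite strand over 68 bases, and Ddit3, a stress transcription factor, rose in the same comparison by 1.79 on the log2 scale (adjusted p = 4.1e-05). The strand setting of the counting is not given in the sources used here, so reads from the shared stretch cannot be assigned to one of the 2 genes.

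The 2 smallest rises were those of Iars and Farsb. Iars, the isoleucyl-tRNA synthetase (chr13:49682100-49734267), had 229.2, 230.4 and 365.9 normalised counts at 3 days, 221, 272 and 183.5 at 5 days, and 136.8, 157.2 and 183.8 in monoculture. Its 3-day libraries lay above the monocultures (log2 fold change 0.76, SE 0.22, adjusted p = 0.022), with replicate 3 well above the other 2. Without that replicate the adjusted p was 0.1, and it was 0.08 without monoculture replicate 1 and 0.055 without monoculture replicate 2. Farsb, the beta subunit of phenylalanyl-tRNA synthetase (chr1:78417975-78488897), had 222.5, 297.2 and 283.8 at 3 days, 244.4, 259.9 and 177.3 at 5 days, and 142.3, 171.6 and 171.6 in monoculture. Both co-culture groups lay above the monocultures, and its 3-day log2 fold change was 0.72 (SE 0.20, adjusted p = 0.016). Leaving out replicate 2 of the 3-day co-cultures gave an adjusted p of 0.073, and leaving out monoculture replicate 1 gave 0.066. Farsa, the alpha subunit of the same enzyme, had a log2 fold change of -0.07 (adjusted p = 0.86).

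**Figure D1:**
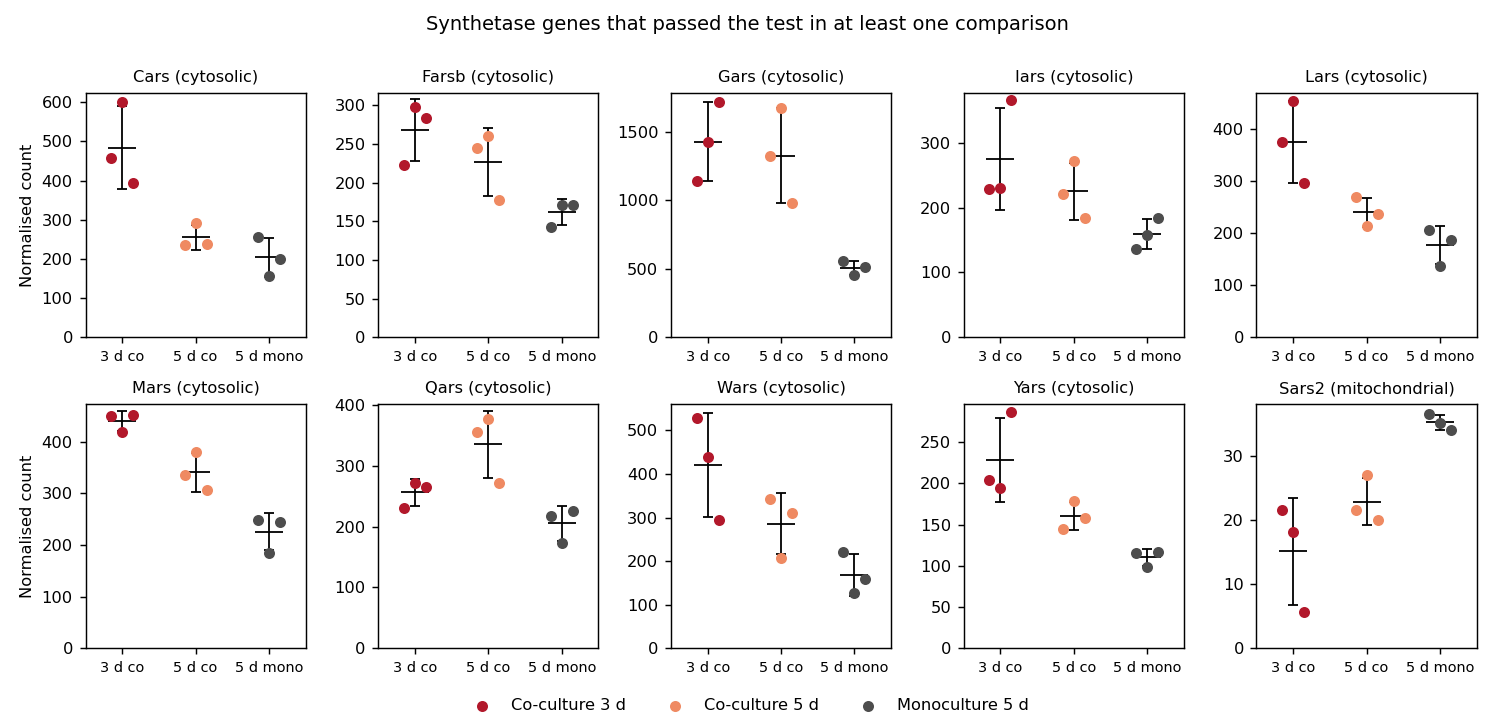
Normalised counts of the 10 synthetase genes that passed the test in at least 1 comparison, each in its own panel with a linear axis from 0. Points are libraries, and bars give the mean and SD of 3 libraries. Gars lies between 977.5 and 1719.6 in the 6 co-cultures and between 451.4 and 555.2 in the monocultures, while Sars2 is lowest in the 3-day co-cultures.

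The other 11 cytosolic genes did not pass at 3 days. Rars, the arginyl enzyme, came closest with a log2 fold change of 0.71 (95% interval 0.18 to 1.24, adjusted p = 0.057). It did pass by edgeR (adjusted p = 0.046) and DESeq2 (adjusted p = 0.039), and in the limma fits with quantile normalisation or array weights. Nars and Tars, which with Gars had the highest means over all libraries, charge asparagine and threonine. Nars had 775.5, 591.7 and 516.2 normalised counts at 3 days, 468.1, 481.5 and 644.2 at 5 days, and 419.6, 432.1 and 514.8 in monoculture. Its 3-day values lay just above the monoculture range, and its log2 fold change was 0.45 (SE 0.19, adjusted p = 0.12). Tars had 675.9, 620.2 and 414.6 at 3 days, 599.3, 462.9 and 759 at 5 days, and 496.4, 326.9 and 435.8 in monoculture. Its groups overlapped in both comparisons with monoculture (log2 fold changes 0.43 and 0.52, adjusted p = 0.21 and 0.11). Eprs, which charges both glutamate and proline, had a 3-day log2 fold change of -0.00 with a 95% interval of -0.42 to 0.42. Dars and Hars had the lowest values, -0.31 and -0.27 (adjusted p = 0.40 and 0.41). Vars, Aars, Kars and Qars lay between 0.33 and 0.46.

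Synthetases fall into 2 unrelated structural classes, and sorting the cytosolic genes by class gave unequal counts. Of 9 class I enzymes 6 rose at 3 days, all 9 had a positive log2 fold change, and the median was 0.97. Of 9 class II enzymes 2 rose (Gars and Farsb), with a median of 0.40. Eprs carries one domain of each class and was left out of both. Membership of the multisynthetase complex, in which 8 of these proteins are held together with 3 scaffold proteins, gave 3 of 8 complex enzymes that rose (median 0.54) and 5 of 11 free ones (median 0.46). Genes linked to ATF4 by earlier work gave 7 of 11 that rose (median 0.97), and the remaining cytosolic genes gave 1 of 8 (median 0.34). Beside these counts, 10.6% of all genes tested rose. They are descriptions, and no difference between such lists was tested. The list of ATF4-linked genes was chosen with earlier results of these data known, so its contrast may depend on how it was drawn.

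The sequences around the transcription start were compared because several of these genes rose together. RefSeq promoter windows, from 250 bases before to 50 after a start on GRCm38.p6, were given for 21 of the 31 genes, as 11 windows of 11 cytosolic genes and 11 windows of 10 mitochondrial genes. They were searched on both strands for the C/EBP-ATF response element, to which ATF4 binds, written as TGATGNAA. It occurred in 5 of the 11 cytosolic windows (45.5%) and 0 of the 11 mitochondrial ones, beside 3.97% of all 32851 windows, 2.21% of windows of genes tested and 3.84% of windows of genes that rose at 3 days. The stretches below show a match of each gene in capitals, on the strand of the gene (for all but Yars as the reverse complement of the letters searched).
Gars, chr6:55037960-55037989, plus strand, 30 bases before the start: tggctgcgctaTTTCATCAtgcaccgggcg
Yars, chr4:129189895-129189924, plus strand, 4 bases after the start: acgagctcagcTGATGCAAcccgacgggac
Iars, chr13:49682126-49682155, plus strand, 8 bases after the start: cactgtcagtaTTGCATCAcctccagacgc
Aars, chr8:111033840-111033869, plus strand, 10 bases after the start: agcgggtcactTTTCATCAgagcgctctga
Tars, chr15:11399655-11399684, minus strand, 15 bases before the start: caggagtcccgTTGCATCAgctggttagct

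Gars, Yars and Iars with a match rose at 3 days, and Aars and Tars with a match did not pass. Wars, Cars, Lars and Mars also rose, but no window was given for them, so they were not searched. Farsb rose and its window held no TGATGNAA. It held the E-box CACGTG, bound by MYC and related factors, 39 bases before its start (chr1:78488919-78488948, minus strand, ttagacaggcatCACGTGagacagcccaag). The E-box was in 4 of 11 cytosolic windows (36.4%; Farsb, Aars, Iars and Tars) and 0 of 11 mitochondrial windows, beside 7.15% of all windows, 10.2% of windows of genes tested and 9.37% of windows of genes that rose at 3 days. The 150 bases before the Gars start are given in full, since Gars had the largest log2 fold change in both comparisons with monoculture.
Gars, chr6:55037851-55038000, plus strand: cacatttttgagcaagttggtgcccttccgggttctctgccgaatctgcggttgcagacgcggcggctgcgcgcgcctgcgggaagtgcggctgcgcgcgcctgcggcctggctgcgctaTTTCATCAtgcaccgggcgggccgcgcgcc
The capitals mark the same match as above. A match is a string of letters in a window and shows no binding in these cells.

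**Figure D2:**
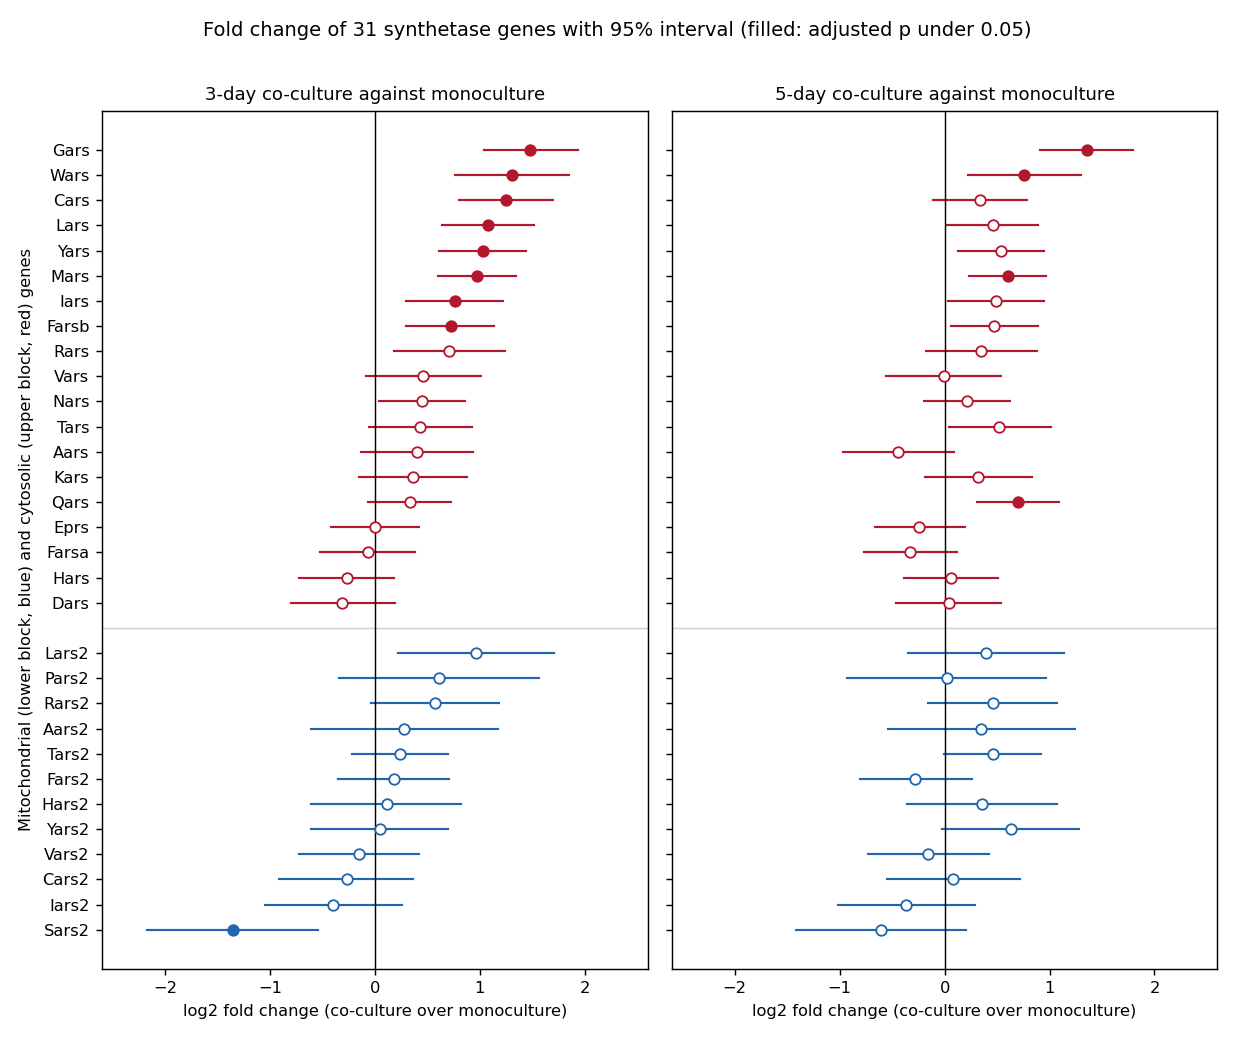
Log2 fold changes of 31 synthetase genes with 95% intervals, for the 3-day (left) and the 5-day co-cultures (right) against monoculture, in the order of the 3-day values; filled points passed the test. Cytosolic genes are in red above and mitochondrial genes in blue below, and the filled points are 8 cytosolic genes and Sars2 at 3 days and 4 cytosolic genes at 5 days.

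Among mitochondrial synthetases, Sars2, which charges serine, was the single gene that fell at 3 days, beside 9.37% of all genes (chr7:28741992-28753871). Its normalised counts were 21.6, 18.1 and 5.6 at 3 days, 21.6, 27 and 20 at 5 days, and 36.5, 35.1 and 34.1 in monoculture. Every co-culture library lay below every monoculture. Its 3-day log2 fold change was -1.35 (SE 0.38, adjusted p = 0.02), and at 5 days it was -0.61 (adjusted p = 0.28). The gene rested on 4 to 73 reads per library, and without replicate 3 of the 3-day co-cultures the adjusted p was 0.068. Leaving out monoculture replicate 2 gave 0.05 and leaving out replicate 3 gave 0.051, neither of which passed.

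Lars2, the mitochondrial leucyl enzyme, had the largest positive value of this set, 0.96 (95% interval 0.22 to 1.71, adjusted p = 0.065). Groups did not overlap for 2 of 12 mitochondrial genes with higher values at 3 days (Lars2 and Rars2), beside 19.2% of all genes. The same held for 1 with lower values (Sars2), beside 18.1%. No mitochondrial gene rose by edgeR or DESeq2, and 1 was higher at an unadjusted p under 0.05. Lars2 did pass in the limma fit without 3-day co-culture replicate 2 and in that without monoculture replicate 2. The mitochondrial genes had between 4 and 152 reads per gene and library and the cytosolic ones between 44 and 2047. The median SD of log2 values within the 3-day co-cultures was 0.38 for the mitochondrial set, 0.31 for the cytosolic set and 0.32 for all genes tested. In 11 pairs of a cytosolic gene and a mitochondrial gene for the same amino acid, with Fars2 set against each of Farsa and Farsb, the cytosolic log2 fold change was the larger in 9 at 3 days, 6 at 5 days and 3 between the co-culture times. The widest gaps were those of Cars and Cars2 (1.25 and -0.27), Iars and Iars2 (0.76 and -0.40) and Yars and Yars2 (1.03 and 0.05), while Lars and Lars2 (1.08 and 0.96) lay close together. Exons of Cars, Iars2, Cars2, Fars2, Vars2, Aars and of the pair Hars and Hars2 overlap genes on the opposite strand (for Cars the pseudogene Gm15580, over 211 bases), so their values are uncertain for the reason given for Mars. Farsb and Yars also overlap genes on the opposite strand (Sgpp2 over 248 bases and C77080 over 30 bases) and are uncertain for the same reason. Aars in addition shares exons with Exosc6 on its own strand.

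The second comparison set fibroblasts after 5 days of co-culture against fibroblasts after 5 days alone, and so held time equal. Of 19 cytosolic synthetases 4 rose (Gars, Qars, Mars and Wars) and 0 fell, beside 12.6% of all genes that rose and 24.0% that changed. No cytosolic gene was lower at an unadjusted p under 0.05, by edgeR or by DESeq2. The median log2 fold change was 0.35, with a range of -0.44 to 1.36, beside -0.008 for all genes. Groups did not overlap for 6 genes with higher values (Farsb, Gars, Lars, Mars, Qars and Yars) and 2 with lower values (Aars and Farsa), beside 20.8% and 20.1% of all genes. None of 12 mitochondrial genes passed in either direction (0 at an unadjusted p under 0.05 by limma, 0 by edgeR and 0 by DESeq2), and their median was 0.22.

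Gars again led, by 1.36 on the log2 scale (SE 0.21, adjusted p = 0.00019). Qars, the glutaminyl-tRNA synthetase (chr9:108507706-108515941), was the only one of the 4 that did not pass at 3 days. It had 230.8, 272.2 and 265.7 normalised counts in the 3-day co-cultures, 355.8, 376.3 and 272.2 in the 5-day co-cultures, and 216.6, 173 and 225.6 in the monocultures. Both co-culture groups lay above the monocultures, and the log2 fold change was 0.33 at 3 days (adjusted p = 0.24) and 0.70 at 5 days (SE 0.18, adjusted p = 0.011). The difference between the 2 times was 0.37 (95% interval -0.02 to 0.77, adjusted p = 0.25). Mars rose by 0.60 on the log2 scale (SE 0.17, adjusted p = 0.02) and Wars by 0.76 (SE 0.26, adjusted p = 0.04). Yars missed the threshold at 0.54 (adjusted p = 0.056), as did Farsb at 0.47 (0.094) and Lars at 0.46 (0.12).

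The count of 4 depended on the processing and on single libraries, Gars aside. With every library thinned to the depth of the shallowest, 1 gene was called, Gars. Thinning also replaced the deposited scaling by scaling to equal totals. The 5-day median log2 fold change of all genes was then -0.098, beside -0.008 in the main fit. Effects of depth and of scaling cannot be told apart here. Leaving out monoculture replicate 2 also left Gars alone, and leaving out 5-day replicate 2 left Gars and Wars. The column taken as that replicate names no carcinoma cells and was placed by elimination.

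The third comparison asked what changed between 3 and 5 days of co-culture. Of 31 synthetases 0 rose and 1 fell, beside 3.20% and 3.71% of all genes and 6.91% in either direction. None was higher by edgeR, by DESeq2 or at an unadjusted p under 0.05. The gene that fell was Cars, whose 5-day values all lay below its 3-day values (log2 fold change -0.91, SE 0.21, adjusted p = 0.017). Against monoculture its log2 fold changes were 1.25 at 3 days (adjusted p = 0.00052) and 0.34 at 5 days (adjusted p = 0.27). The Cars fall missed the threshold without 3-day replicate 2 (adjusted p = 0.097), without 5-day replicate 1 (0.064) or without 5-day replicate 3 (0.063). Of the cytosolic genes 15 had a negative and 4 a positive log2 fold change, and the median was -0.26, beside -0.005 for all genes. Groups did not overlap for Cars, Lars, Mars and Yars, all lower at 5 days, beside 12.9% of all genes, and 0 cytosolic genes were higher without overlap, beside 11.7%. Aars was next to the threshold, with 306.4, 184.4 and 240.9 normalised counts at 5 days and 629.4, 442 and 282.4 at 3 days (log2 fold change -0.84, adjusted p = 0.055). Its 3-day libraries differed more than those of any other cytosolic gene, with an SD of 0.58 on the log2 scale, and its groups overlapped. Both edgeR and DESeq2 called Aars as well as Cars. Gars differed little between the times (-0.12, 95% interval -0.57 to 0.32). Among mitochondrial genes 0 passed (0 at an unadjusted p under 0.05, 0 by edgeR and 0 by DESeq2), with a median of 0.05.

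**Figure D3:**
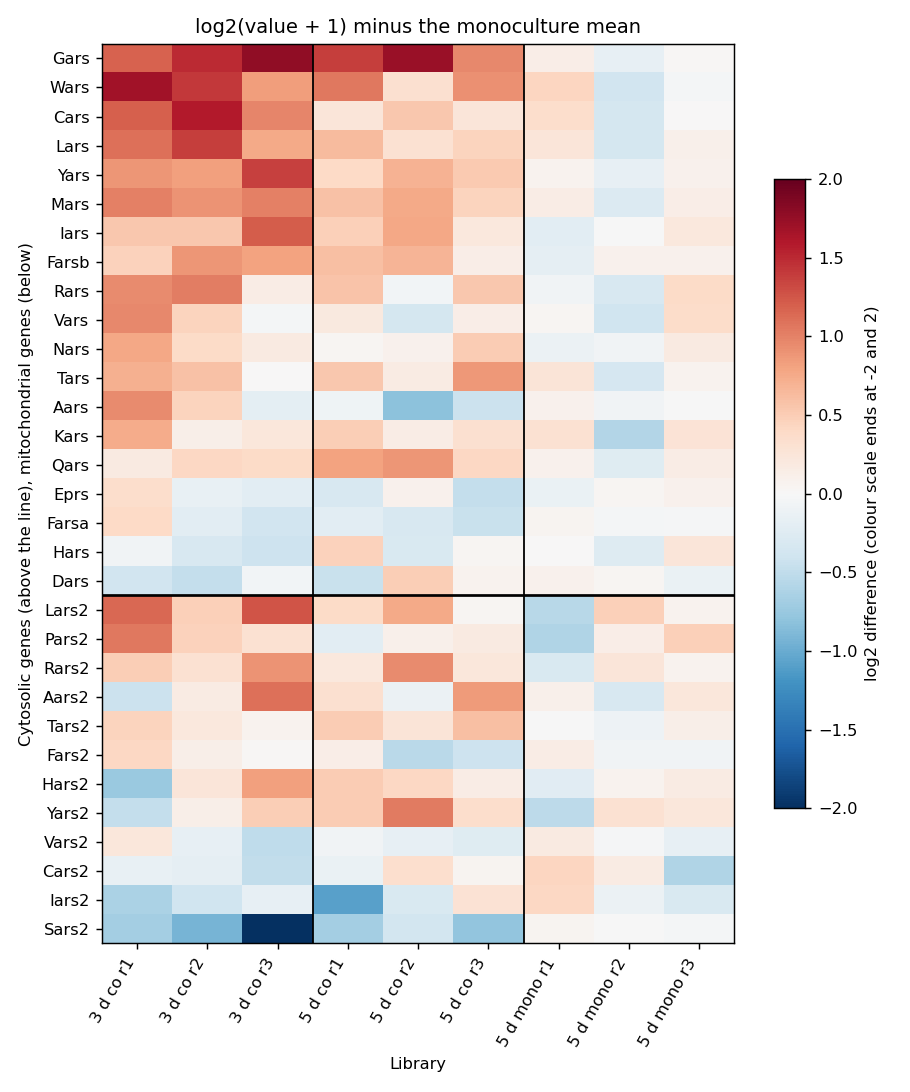
Each row is a synthetase gene and each column a library; colour gives log2(value + 1) minus the mean of the 3 monocultures, on a scale that ends at -2 and 2. The upper 19 rows are cytosolic and the lower 12 mitochondrial, in the order of the 3-day log2 fold change. Gars is red in all 6 co-cultures, and the cell of Sars2 in replicate 3 of the 3-day co-cultures is the darkest blue.

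Summed over the 19 cytosolic genes, normalised counts were 7923, 7620 and 6877 in the 3-day co-cultures, 6447, 6321 and 5968 in the 5-day co-cultures, and 4761, 3913 and 4875 in the monocultures. The 3 groups did not overlap. With Gars left out the sums were 5157 to 6784 at 3 days, 4650 to 5126 at 5 days and 3461 to 4365 in monoculture, again with no overlap. In recovered reads the cytosolic set took 0.390% to 0.455% of each library at 3 days, 0.328% to 0.361% at 5 days and 0.228% to 0.289% in monoculture. Sums over the 12 mitochondrial genes overlapped throughout, at 343.9 to 388.3 in 3-day co-cultures, 355.0 to 409.8 in 5-day co-cultures and 341.3 to 370.2 in monocultures.

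Within groups the members did not vary as 1 block. In replicate 3 of the 3-day co-cultures 11 of 19 cytosolic genes had the lowest value of their group (57.9%, beside 36.7% of all genes tested), and 5 had the highest: Dars, Gars, Iars, Mars and Yars. In that library the cytosolic median of log2 differences from the monoculture mean was 0.22, close to its mitochondrial median of 0.19, whereas the other 3-day libraries had 0.77 and 0.54 against 0.04 and 0.14. Monoculture replicate 2 had the lowest value for 14 of 19 cytosolic genes (73.7%, beside 34.7% of all genes).

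Companion genes of the synthetases are read beside the same shares of all genes, 10.6% that rose and 9.37% that fell at 3 days, and 12.6% and 11.4% at 5 days. Of the 3 scaffold proteins of the multisynthetase complex, Aimp1 averaged 406.2 ± 67.2 normalised counts at 3 days of co-culture, 421.0 ± 49.5 at 5 days and 256.4 ± 26.6 in monoculture (SD, n = 3 each), and rose in both (0.65, adjusted p = 0.017, and 0.71, adjusted p = 0.0085). Eef1e1 rose at 5 days, with 121.3 ± 21.8 against 55.1 ± 2.20 in monoculture (1.11, adjusted p = 0.0011), and Aimp2 was higher at 5 than at 3 days of co-culture, with 196.2 ± 36.7 and 106.6 ± 18.9 (0.87, adjusted p = 0.019). Of 23 genes of tRNA processing, modification and transcription, 1 rose and 1 fell at 3 days. Adat2, a subunit of the tRNA adenosine deaminase, rose at 3 days (1.07, adjusted p = 0.022). Maf1, a repressor of RNA polymerase III, fell at 3 days (-0.66, adjusted p = 0.038) and at 5 days (-0.67, adjusted p = 0.031). Of 9 elongation factors and their partners, at 5 days Eef1a1, which carries charged tRNA to the ribosome, fell (-0.96, adjusted p = 0.005) and the ribosome rescue factor Pelo rose (0.74, adjusted p = 0.032). None of 10 mitochondrial translation factors, highest Tufm, passed in any comparison (0 at an unadjusted p under 0.05, 0 by edgeR and 0 by DESeq2).

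The ATF4 pathway was described beside the synthetases because it is known to drive many of them. Atf4 itself had 1733.7, 2312.5 and 2160.7 normalised counts at 3 days, 1321.7, 1463.2 and 1317.1 at 5 days, and 936.4, 940.7 and 964.7 in monoculture. Its 3 groups did not overlap. It rose at 3 days (1.12, adjusted p = 0.00017) and at 5 days (0.53, adjusted p = 0.029), and it was lower at 5 than at 3 days (-0.59, adjusted p = 0.043). Of 17 tested genes of eIF2α signalling and ATF4, 7 rose and 1 fell at 3 days, 5 rose and 3 fell at 5 days, and 8 were lower at 5 than at 3 days and 0 higher (0 by edgeR, 0 by DESeq2 and 1 at an unadjusted p under 0.05). Over all genes 10.6% rose and 9.37% fell at 3 days, 12.6% and 11.4% at 5 days, and 3.20% were higher and 3.71% lower at 5 than at 3 days. Chac1 and Trib3 rose in both comparisons with monoculture, by 2.72 and 2.80 at 3 days and by 1.43 and 1.31 at 5 days (largest adjusted p = 0.0014). Nupr1, a stress-induced chromatin protein, rose at both times (1.99, adjusted p = 6.9e-07, and 0.58, adjusted p = 0.018). The bZIP factor gene Atf5 fell at both times (-0.58, adjusted p = 0.024, and -1.49, adjusted p = 9e-06). Cebpb, of the C/EBP family, and Ddit4 fell at 5 days (-1.61, adjusted p = 2.6e-05, and -0.74, adjusted p = 0.02).

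Most ATF4-linked genes of amino acid synthesis and uptake rose at 3 days and were lower at 5 than at 3 days. Of 17 genes 12 rose and 1 fell at 3 days (median 1.19), 1 rose and 4 fell at 5 days (median -0.18), and 13 were lower at 5 than at 3 days (median -1.48), with 0 higher by limma, edgeR, DESeq2 or an unadjusted p under 0.05. Beside these counts, 10.6% of all genes rose and 9.37% fell at 3 days, and 12.6% rose and 11.4% fell at 5 days. Between the times 3.20% of all genes were higher at 5 days and 3.71% lower. The share of 5.88% that rose at 5 days lay below the 12.6% of all genes. Asns, asparagine synthetase, had 705.8, 990.6 and 742.9 normalised counts at 3 days, 259.7, 258.9 and 183.5 at 5 days, and 276.7, 268.7 and 288.6 in monoculture. Its 3-day libraries stood apart, while its 5-day libraries lay below the monocultures by less than the test could call (1.53, adjusted p = 3.3e-05, and -0.26, adjusted p = 0.35). Cth, which makes cysteine from cystathionine, rose at 3 days by 3.22 (adjusted p = 3.4e-08) and at 5 days by 1.54 (adjusted p = 4.5e-05). The arginine and lysine transporter Slc7a3 rose at 3 days (2.12, adjusted p = 6.7e-05) and was at -0.18 at 5 days (adjusted p = 0.71). Psat1, of serine synthesis, was lower at 5 than at 3 days by a log2 difference of -2.01 (adjusted p = 0.00017). The neutral amino acid transporters Slc38a2 and Slc1a5 fell at 5 days (-1.72, adjusted p = 7.2e-06, and -1.24, adjusted p = 0.00022), and Slc38a2 also at 3 days (-1.08, adjusted p = 0.00082).

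**Figure D4:**
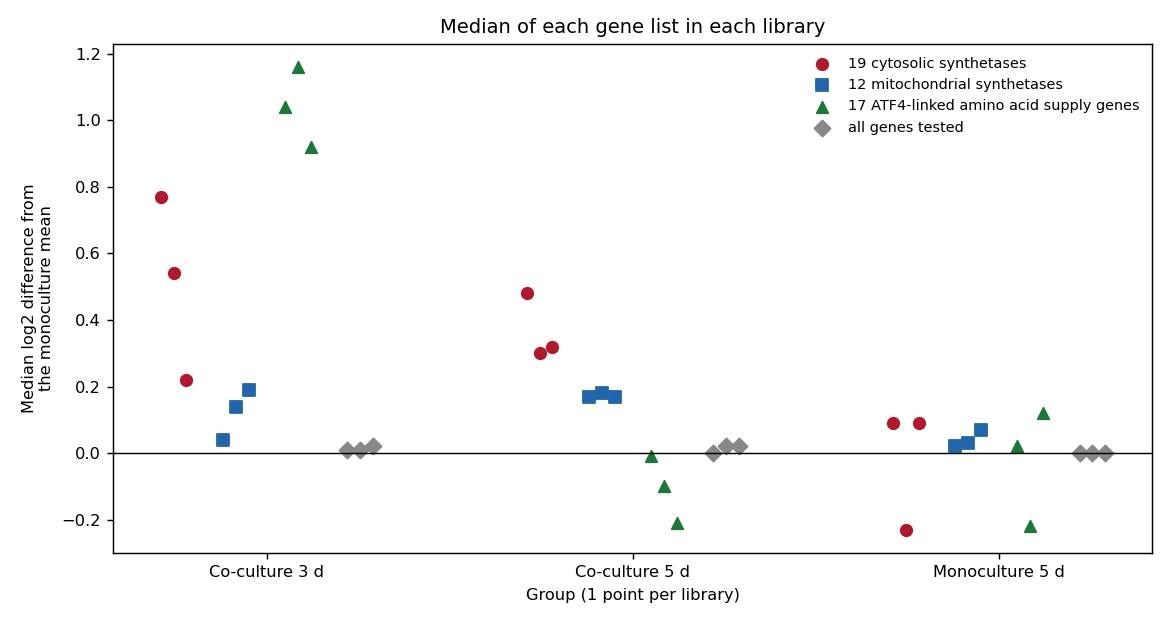
Median log2 difference from the monoculture mean over each gene list, with 1 point per library. The cytosolic synthetases lie at 0.22 to 0.77 at 3 days, 0.30 to 0.48 at 5 days and -0.23 to 0.09 in monoculture, and the 17 ATF4-linked amino acid supply genes lie at 0.92 to 1.16 at 3 days, -0.21 to -0.01 at 5 days and -0.22 to 0.12 in monoculture.

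Because Wars is also an interferon-gamma target in human cells, 10 genes of that response were read alongside it. At 3 days 7 rose and 0 fell (0 also by edgeR, by DESeq2 and at an unadjusted p under 0.05), and at 5 days 6 rose and 1 fell, Irf1 (-0.82, adjusted p = 0.021). Of all genes 10.6% rose at 3 days and 12.6% at 5 days, and 9.37% and 11.4% fell. Gbp3, a guanylate-binding protein, rose by 2.35 at 3 days (adjusted p = 0.0001) and by 2.32 at 5 days (adjusted p = 7.9e-05), the chemokine gene Cxcl10 by 2.73 (adjusted p = 0.00019) and 3.52 (adjusted p = 1.1e-05), and the GTPase gene Igtp by 1.85 (adjusted p = 0.00028) and 2.02 (adjusted p = 8.7e-05). Psmb8, an immunoproteasome subunit, rose by 1.39 (adjusted p = 0.00015) and 0.73 (adjusted p = 0.015). Of 7 genes of the MYC axis 0 rose in either comparison by limma, edgeR or DESeq2, with 1 higher at 3 days at an unadjusted p under 0.05. Max and Mxd1 fell at 3 days (-0.62, adjusted p = 0.032, and -1.69, adjusted p = 0.024), and Mxd1 fell at 5 days (-1.83, adjusted p = 0.013). Whether any of these genes act on the synthetases was not tested.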

How the data were processed

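Per the submitters' processing notes, the tools were bcl2fastq, STAR 2.4.2a and HTSeq and the build was mm10; their settings, the annotation and the strand setting are not given in the sources used here. The authors deposited normalised counts (a signal per gene, scaled by a factor for each library). In every library the low values step by the size of 1 read (0.481 to 1.661 units), and dividing by that step gave whole reads for 99.98% to 100% of values within a tolerance of 0.051. Whether molecular identifiers were counted is not given in the sources used here.

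Columns were matched to samples by name; the column of 5-day co-culture replicate 2 names no carcinoma cells and was placed there because monoculture replicate 2 has a column of its own. The table held 18 genes with names turned into dates. Tests used limma 3.58.1 in R 4.3.3 (lmFit, eBayes with trend, two-sided) on log2(value + 1) over all 9 libraries, with 1 mean per group and Benjamini-Hochberg adjustment at 0.05. A gene was tested if 3 or more libraries had a value of 5 or more, which kept 10639 and left out 1292. Log2 fold changes understate the change of low genes. The script was tested on simulated data. Alternatives included edgeR 4.0.16 and DESeq2 1.42.0 on the recovered reads, which called 2239 and 2049 genes at 3 days, 2736 and 2550 at 5 days, and 677 and 738 between the co-culture times.

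The members and all gene lists were chosen with earlier results of these data known. Every synthetase in the table is accounted for, with all library values for members called in any comparison and for the 3 highest; of other lists, up to 3 called genes per comparison by smallest adjusted p, else the highest, and of marker lists the 2 highest. Ddit3, Irf1, Atf4, Aars, Rars, further fibroblast, basal and pericyte markers and other members given beyond that rule were named after their values were seen. Promoter windows came from RefSeq (GRCm38.p6) and were searched in Python 3.11.15. Some results of companion genes and promoter stretches are not reported here.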

Additional observations from a re-analysis of the deposited data

Results flagged for a closer look

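Effects against monoculture differed between 3 and 5 days of co-culture for 14 of the genes named outside the marker lists, by limma's test of the 5-day against the 3-day co-cultures. Among the synthetases this was Cars, with a log2 difference between 5 and 3 days of -0.91. Of the scaffold genes it was Aimp2, with 0.87. Of eIF2α signalling and ATF4 these were Atf4 (-0.59), Ddit3 (-1.29), Atf5 (-0.91), Cebpb (-1.08), Trib3 (-1.49), Chac1 (-1.28) and Nupr1 (-1.41). In amino acid supply they were Asns (-1.79), Psat1 (-2.01), Cth (-1.68), Slc7a3 (-2.30) and Slc1a5 (-1.52). Up to 3 genes of each companion list were named because they passed this same test. The count of 14 was therefore partly fixed by the naming, and over all genes tested 6.91% passed. Single outlying values within a group of 3 libraries were not tested for, apart from the fits that leave out 1 library.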

How the results depend on the processing

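The 22 alternatives were 9 that leave out 1 library and 13 others. At 3 days the synthetase count, 9 as reported, was 9 to 10 under the others and 7 to 9 with a library left out; Cars, Gars, Lars, Mars, Wars and Yars passed under all 22, as did Gars at 5 days. The 5-day count, 4 as reported, was 1 after thinning to equal depth, 5 with only the 2 groups compared, 6 with array weights (Farsb and Yars added), and 1 to 5 with a library left out, lowest without monoculture replicate 2. Between the co-culture times the count, 1 as reported, was 2 with a pseudocount of 5, a replicate block, edgeR or DESeq2, 3 with quantile normalisation or array weights, and 0 to 3 with a library left out. All genes called there, 735 as reported, numbered 1124 with array weights, 489 after thinning and 323 to 739 with a library left out, against 1534 to 2132 at 3 days and 1935 to 2759 at 5 days. The cytosolic minus mitochondrial median, 0.31 at 3 days, was 0.17 to 0.72 with a library left out, highest without 3-day replicate 3. At 5 days it was 0.13 as reported, 0.38 thinned and 0.01 to 0.27 with a library left out, and between the times -0.31, -0.59 and -0.48 to -0.12. Between the times Tars, 0.09 as reported, was -0.02 with quantile normalisation and with array weights, -0.12 without 3-day replicate 3 and -0.08 without 5-day replicate 3; Gars, -0.12 as reported, was 0.02 and 0.08 without those same libraries. The cause of these changes was not tested. Wars at 5 days had an adjusted p of 0.15 after thinning and 0.16 without monoculture replicate 2.

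Whether replicate numbers pair the samples was left undecided, and the main fit used no replicate block. Deviations of same-numbered libraries correlated above 0.1 in 4 of 9 pairs (-0.199 to 0.324). Those of differently numbered libraries did so in 5 of 18 pairs (-0.379 to 0.487), and the 2 ranges overlap. With a replicate block, 2219 genes were called at 3 days, 2663 at 5 days and 827 between the times, and the 2 synthetases called between the times were Aars and Cars. Depth limits the mitochondrial genes, some of which rest on 4 reads in a library.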
